A study of Arabidopsis thaliana with 29 samples.

Results

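Glucosinolates are sulfur-rich defence compounds of Arabidopsis and its relatives, which myrosinases break down into toxic products when tissue is damaged. The aliphatic branch starts from methionine, whose side chain is lengthened before the core structure is built. The indolic branch starts from tryptophan. In each branch a CYP79 enzyme turns the amino acid into an aldoxime, a CYP83 enzyme oxidises the aldoxime, and the C-S lyase SUR1 serves both branches.

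The genes described here are 10 loci taken from a table of 59999 loci by their locus identifiers. The aliphatic branch has 6 of them, namely the regulators MYB28 (AT5G61420) and MYB29 (AT5G07690), the chain elongation enzymes BCAT4 (AT3G19710) and MAM1 (AT5G23010), and the core enzymes CYP79F1 (AT1G16410) and CYP83A1 (AT4G13770). The indolic branch has 3, which are CYP79B2 (AT4G39950), CYP79B3 (AT2G22330) and CYP83B1 (AT4G31500). SUR1 (AT2G20610) belongs to both. All 10 were among the 21820 loci with counts enough to be tested.

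RNA came from Arabidopsis seedlings aged 7 days, grown on sucrose medium in 16 h of light and 8 h of dark. The fusca group (3 libraries) is the line 2x35S::GFP-HY5/hy5 with the fusca phenotype, a name used for dark-pigmented seedlings of constitutively photomorphogenic mutants. The GFP-HY5 group is the same line with no fusca phenotype recorded, and its 3 columns were identical at all 60004 rows, so it was counted as 1 library. The WT group (3 libraries) carries no transgene by its label. Fusca and GFP-HY5 share the hy5 mutation and the transgene, in which the broadly active 35S promoter drives the light-response transcription factor HY5 fused to a fluorescent protein. The labels do not say whether libraries came from separate cultures or how many seedlings were pooled, so p-values measure only the spread between these libraries.

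Libraries held 11860094 to 12545563 counts over loci. Levels are given as CPM, the count relative to a library total scaled with TMM factors, which were 1.11 to 1.26 in fusca, 0.911 in GFP-HY5 and 0.839 to 0.888 in WT. The HY5 locus stood at 148 ± 32.9 CPM in fusca, 77.3 CPM in GFP-HY5 and 14.1 ± 2.04 CPM in WT (SD, n = 3 for fusca and WT). In fusca and GFP-HY5 its counts do not tell the transgene from the mutant hy5 locus. Markers of shoot mesophyll were present in every library but summed to 724 to 1693 CPM in fusca, against 26570 CPM in GFP-HY5 and 29273 to 35878 CPM in WT. Markers of shoot epidermis and guard cells summed to 319 to 411 CPM in fusca, 393 CPM in GFP-HY5 and 277 to 376 CPM in WT. That sum is mainly the epidermal genes PDF1 and ATML1, while both guard cell markers fell in fusca against WT, KAT1 by 1.28 and FAMA by 2.44 on the log2 scale (edgeR adjusted p = 0.000347 and 8.38e-06). The 7 endodermis markers of the root summed to 158 to 232 CPM in fusca, 112 CPM in GFP-HY5 and 89.5 to 112 CPM in WT. The 4 root hair markers summed to 21.6 to 24.6 CPM in fusca, 32.5 CPM in GFP-HY5 and 43.6 to 61.2 CPM in WT. All 16 root markers together, of which 6 were higher and 5 lower in fusca past the threshold, summed to 314 to 438 CPM in fusca, 528 CPM in GFP-HY5 and 572 to 840 CPM in WT. The iron transporter IRT1 was 4.04 to 7.83 CPM of that sum in fusca, 229 CPM in GFP-HY5 and 298 to 528 CPM in WT. No root or shoot marker was at 0 in any library. The part of organ or cell makeup in the results that follow was not tested. In bulk seedling RNA, fewer cells of a type and less RNA per cell cannot be told apart.

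The comparison of fusca with WT asks how the pathway differs in seedlings that show the phenotype. All 6 aliphatic genes fell, the enzymes 4.24-fold to 10.9-fold and the 2 regulators 1.91-fold and 1.95-fold. Of the 3 indolic genes, CYP79B2 rose 2.58-fold and CYP79B3 rose 1.73-fold, while CYP83B1 was not past the threshold. SUR1, which serves both branches, fell 1.43-fold. In all, 7 of the 10 were lower and 2 higher past an adjusted p of 0.05 (edgeR quasi-likelihood test with Benjamini-Hochberg adjustment over all 21820 loci). The same rule called 35.1% of all loci, 18.4% lower and 16.7% higher. The fusca and WT libraries did not overlap at any of the 10 genes, 7 lying below and 3 above, where 49.7% of all loci did not overlap, 24.4% below and 25.3% above. The median log2 fold change was -2.20 over the aliphatic genes and 0.79 over the indolic genes, beside 0.05 over all loci tested.

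**Figure D1:**
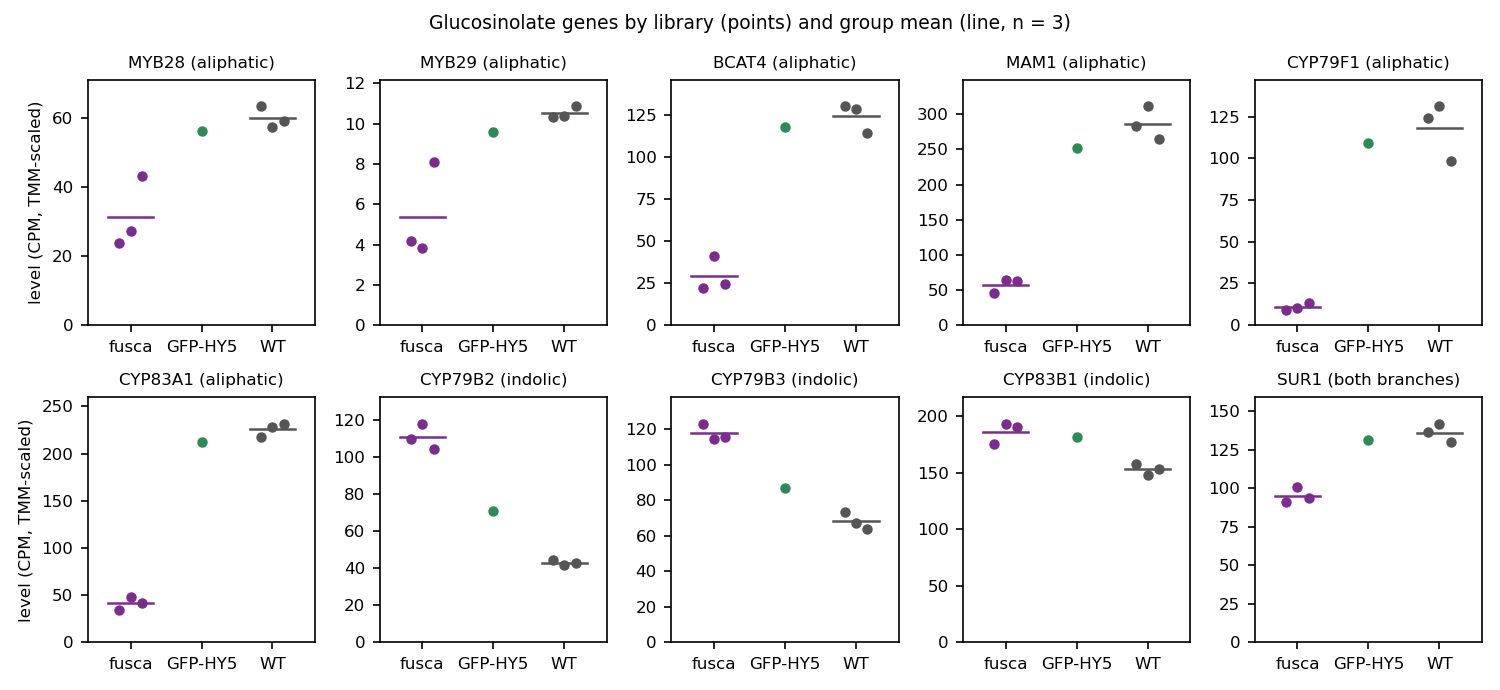
Level of each of the 10 genes in CPM (vertical axis, from 0, own scale per gene) in fusca, GFP-HY5 and WT. Each point is a library and each line the mean of 3 libraries; the 6 aliphatic genes lie lower in all fusca libraries than in all WT libraries, and CYP79B2 and CYP79B3 lie higher.

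The regulators changed least among the aliphatic genes. MYB28, an R2R3-MYB transcription factor that switches on the aliphatic branch, stood at 23.7, 27.3 and 43.3 CPM in fusca replicates 1, 2 and 3, 56.1 CPM in GFP-HY5 and 63.4, 57.3 and 59.2 CPM in WT replicates 1, 2 and 3. All fusca libraries lay below all WT libraries, with replicate 3 the nearest to WT. The log2 fold change was -0.93 (SE 0.22, edgeR adjusted p = 0.00836). MYB29, its close relative with an overlapping role, stood at 4.18, 3.84 and 8.09 CPM in fusca, 9.60 CPM in GFP-HY5 and 10.3, 10.4 and 10.9 CPM in WT. Fusca replicate 3 was again the highest of its group, and the groups did not overlap. The log2 fold change of MYB29 was -0.96 (SE 0.28, edgeR adjusted p = 0.0236). Its call was lost without WT replicate 1 (-0.95), 2 (-0.95) or 3 (-0.90) and without fusca replicate 1 (-0.81), with edgeR adjusted p between 0.0737 and 0.0954 in those fits and 0.00106 to 0.182 over all alternatives. Scaling by library size only lost the call for MYB28 (-0.47, edgeR adjusted p = 0.118 and 0.00042 to 0.118 across the alternatives) and for MYB29 (-0.50, edgeR adjusted p = 0.182).

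The chain elongation enzymes fell further. BCAT4, the aminotransferase that starts methionine chain elongation, stood at 21.9, 41.5 and 24.6 CPM in fusca, 117.8 CPM in GFP-HY5 and 130.4, 129 and 114 CPM in WT. Fusca replicate 2 was the highest of the fusca libraries and still well under the lowest WT library. The log2 fold change was -2.08 (SE 0.24, edgeR adjusted p = 0.000115). BCAT4 overlaps IKU2 (AT3G19700), whose counts were 73, 129 and 73 in fusca, 258 in GFP-HY5 and 247, 212 and 222 in WT, so how reads were divided there is uncertain. MAM1, the synthase that condenses the elongating chain with acetyl-CoA, stood at 45.5, 63.7 and 63.4 CPM in fusca, 252 CPM in GFP-HY5 and 284, 311 and 265 CPM in WT. Every fusca library was below every other library, and the log2 fold change was -2.32 (SE 0.18, edgeR adjusted p = 1.08e-05).

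The core aliphatic cytochromes P450 showed the widest gaps among the 10 genes. CYP79F1, which makes the aldoxime from chain-elongated methionine, stood at 8.82, 10.2 and 13.3 CPM in fusca, 109 CPM in GFP-HY5 and 124, 131 and 98.7 CPM in WT. All fusca libraries were far below GFP-HY5 and WT, and the log2 fold change was -3.45 (SE 0.20, edgeR adjusted p = 2.12e-06). CYP83A1, which oxidises aliphatic aldoximes, stood at 34.8, 48.4 and 41.3 CPM in fusca, 212 CPM in GFP-HY5 and 218, 228 and 232 CPM in WT. The groups were again apart, with a log2 fold change of -2.44 (SE 0.16, edgeR adjusted p = 4.93e-06).

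CYP79B2 and CYP79B3 both turn tryptophan into indole-3-acetaldoxime, a compound that also feeds camalexin and auxin synthesis. CYP79B2 stood at 110, 118 and 104.5 CPM in fusca, 70.8 CPM in GFP-HY5 and 44.5, 41.5 and 42.7 CPM in WT. Fusca was high, WT low and GFP-HY5 between them with no overlap, and the log2 fold change of fusca against WT was 1.37 (SE 0.13, edgeR adjusted p = 3.6e-05). CYP79B3 stood at 123, 114 and 115 CPM in fusca, 86.5 CPM in GFP-HY5 and 73.3, 67.2 and 63.7 CPM in WT. The order was the same as for CYP79B2, with a log2 fold change of 0.79 (SE 0.13, edgeR adjusted p = 0.00123). CYP83B1, the indolic counterpart of CYP83A1, stood at 175, 194 and 191 CPM in fusca, 182 CPM in GFP-HY5 and 158, 148 and 154 CPM in WT. Fusca was above WT without overlap. The log2 fold change of 0.28 (SE 0.13) was not past the threshold (edgeR adjusted p = 0.130). CYP83B1 passed the threshold without fusca replicate 2 (0.25, edgeR adjusted p = 0.0431), with upper-quartile factors (0.43, edgeR adjusted p = 0.0275) and with library size only (0.73, edgeR adjusted p = 0.00156), and adjusted p ran from 0.00156 to 0.290 across the alternatives.

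SUR1, whose C-S lyase step lies downstream of both CYP83 enzymes, stood at 90.9, 101 and 93.7 CPM in fusca, 132 CPM in GFP-HY5 and 136, 142 and 130.0 CPM in WT. The fusca libraries were all lower than the WT libraries, and the log2 fold change was -0.52 (SE 0.13, edgeR adjusted p = 0.0125). The call was lost without WT replicate 1 (-0.49, edgeR adjusted p = 0.0627) or 2 (-0.46, edgeR adjusted p = 0.0768), under the replicate block (-0.48, edgeR adjusted p = 0.0606) and with library size only (-0.07, edgeR adjusted p = 0.642), and adjusted p ran from 0.00032 to 0.642 across the alternatives.

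**Figure D2:**
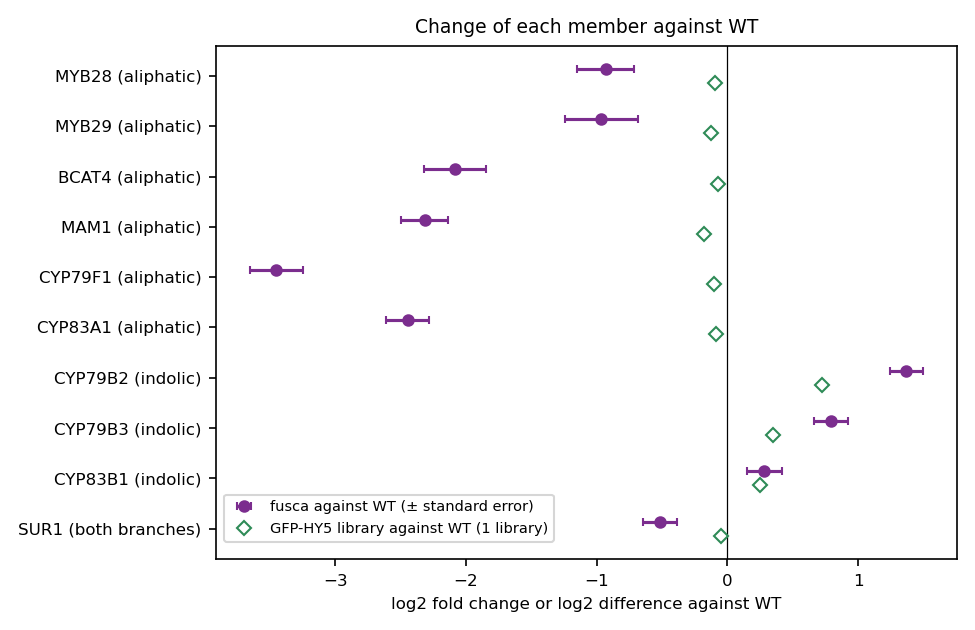
Log2 fold change of fusca against WT with its standard error (filled circles) and log2 difference of the single GFP-HY5 library from the WT mean (open diamonds) for each of the 10 genes. The 6 aliphatic genes run from -3.45 to -0.93 in fusca and from -0.18 to -0.07 in GFP-HY5, while the 3 indolic genes run from 0.28 to 1.37 in fusca and from 0.25 to 0.72 in GFP-HY5.

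Ratios of counts within a library do not depend on the scaling between libraries. CYP79B2 had 12.4, 11.5 and 7.86 counts per count of CYP79F1 in fusca, 0.649 in GFP-HY5 and 0.358, 0.316 and 0.433 in WT. CYP79B2 thus had more counts than CYP79F1 in every fusca library and fewer in every other library. With CYP79B3 added to CYP79B2, the ratio to CYP79F1 was 26.4, 22.7 and 16.5 in fusca, 1.44 in GFP-HY5 and 0.949, 0.828 and 1.08 in WT. That ratio leaves out CYP79F2, the paralog of CYP79F1, so it does not give the order of the 2 branches at this step. CYP79F2 had 260, 356 and 286 counts in fusca, 452 in GFP-HY5 and 363, 405 and 324 in WT. CYP83B1 had 5.04, 4.00 and 4.62 counts per count of CYP83A1 in fusca, 0.858 in GFP-HY5 and 0.725, 0.652 and 0.663 in WT. That ratio was likewise above 1 in every fusca library and below 1 in every other library. Between fusca and WT the first ratio differed 28.4-fold and the second 6.67-fold, and both had an exact two-sided permutation p of 0.1, the smallest that 3 libraries against 3 allow (0.125 adjusted over 5 ratios). Of all counts on the 3 indolic genes and the 4 aliphatic enzymes, the indolic genes held 78.6%, 72.2% and 74.2% in fusca, 32.9% in GFP-HY5 and 26.7%, 24.3% and 26.8% in WT.

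**Figure D3:**
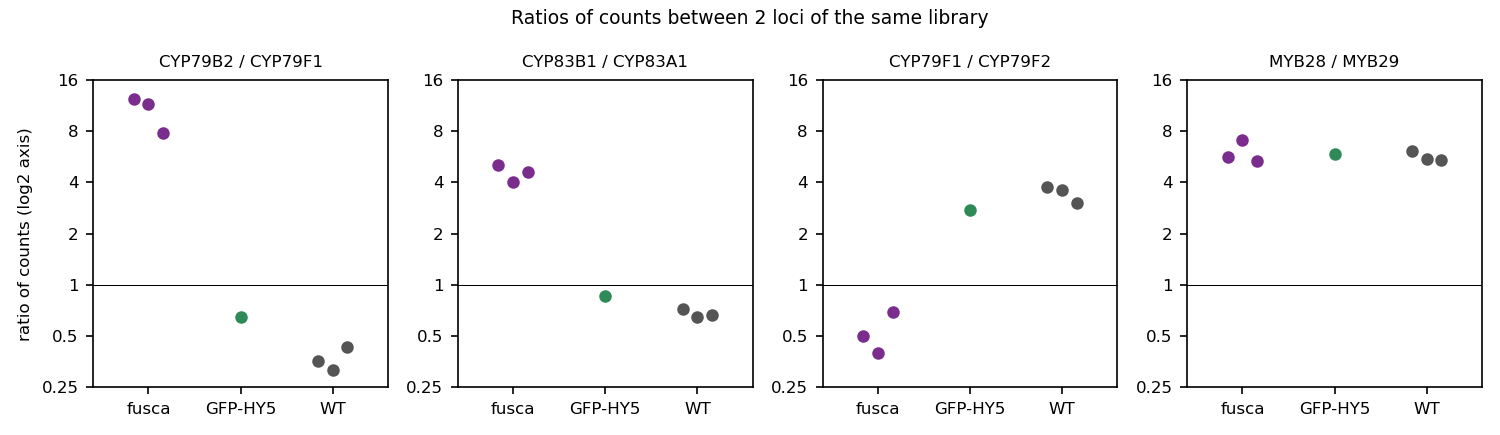
Ratios of the counts of 2 loci in the same library (vertical log2 axis, points are libraries, line at a ratio of 1) in fusca, GFP-HY5 and WT. CYP79B2 over CYP79F1 and CYP83B1 over CYP83A1 lie above 1 in all fusca libraries and below 1 in GFP-HY5 and WT, CYP79F1 over CYP79F2 does the reverse, and MYB28 over MYB29 overlaps between fusca and WT.

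Ratios were also taken between close relatives. CYP79F2 (AT1G16400), the neighbouring paralog of CYP79F1 that acts on long-chain derivatives of methionine, stood at 17.5, 25.8 and 19.1 CPM in fusca, 39.8 CPM in GFP-HY5 and 32.8, 36.5 and 32.6 CPM in WT. Its log2 fold change was -0.71 (SE 0.17, edgeR adjusted p = 0.0101), a call lost with library size only (-0.27, edgeR adjusted p = 0.163, and 2.73e-05 to 0.163 across the alternatives). CYP79F1 had 0.504, 0.396 and 0.696 counts per count of CYP79F2 in fusca, 2.74 in GFP-HY5 and 3.78, 3.60 and 3.03 in WT, so the more abundant of the pair by counts was CYP79F2 in fusca and CYP79F1 elsewhere. CYP79B2 had 0.892, 1.03 and 0.906 counts per count of CYP79B3 in fusca, 0.819 in GFP-HY5 and 0.607, 0.617 and 0.670 in WT. Both ratios reached the smallest exact permutation p of 0.1 (0.125 adjusted). MYB28 had 5.68, 7.09 and 5.36 counts per count of MYB29 in fusca and 6.15, 5.53 and 5.45 in WT, values that overlapped (exact permutation p = 0.7). These paralogs are similar in sequence, and the division of shared reads between them is uncertain.

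Per kb of the gene's span in the RefSeq gene table, introns included, the order of the levels also turned. In fusca the highest of the 10 was CYP83B1 at 93.5 CPM per kb, followed by CYP79B2 at 43.2 and CYP79B3 at 39.3, and CYP83A1 was at 20.7 CPM per kb. In WT the highest was CYP83A1 at 113 CPM per kb, followed by CYP83B1 at 76.9 and MAM1 at 72.9, and CYP79B2 was at 16.8 CPM per kb. MYB29 was the lowest of the 10 in GFP-HY5 and WT, at 5.01 and 5.49 CPM per kb. In fusca MYB29 and CYP79F1 were the lowest, at 2.80 and 3.19 CPM per kb.

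The comparison of GFP-HY5 with WT describes the transgenic line without the recorded phenotype, as 1 library with no replicate check and no test. None of the 10 genes was past 2-fold, a rule met by 3.07% of all loci, 2.05% higher and 1.02% lower. The aliphatic genes were close to WT, with log2 differences of -0.18 to -0.07 and a median of -0.10, beside 0.01 over all loci. Of these 6, 4 lay below all WT libraries, as did 28.9% of loci. The log2 differences of these 4 were -0.09 (MYB28), -0.13 (MYB29), -0.18 (MAM1) and -0.09 (CYP83A1). The widest gap between 1 WT library and the other 2 was 0.12, 0.07, 0.18 and 0.08 in that order. It was 0.18 at BCAT4 and 0.37 at CYP79F1, where GFP-HY5 lay within the WT range. With library size only, the aliphatic differences ran from -0.11 to -0.01 and that of SUR1 turned from -0.05 to 0.02.

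All 3 indolic genes lay above all WT libraries in GFP-HY5, as did 29.4% of loci. CYP79B2 stood at 70.8 CPM (Wilson 95% interval 66.1 to 75.9, counting error only), a log2 difference of 0.72 where 1 WT library and the other 2 were at most 0.08 apart. CYP79B3 stood at 86.5 CPM (interval 81.3 to 92.1), a log2 difference of 0.35 against up to 0.16 among WT libraries. CYP83B1 stood at 182 CPM (interval 174 to 189.9), a log2 difference of 0.25 against up to 0.07. Over the alternatives tried the difference of CYP79B2 ran from 0.68 to 0.79, of CYP79B3 from 0.30 to 0.42 and of CYP83B1 from 0.21 to 0.31.

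In fusca against the GFP-HY5 library, 4 of the 10 genes were at least 2-fold lower and none was 2-fold higher, where 11.7% and 7.58% of all loci were, 19.3% in all. With library size only CYP79B2 was also past 2-fold, at 1.02 on the log2 scale. The 4 were the aliphatic enzymes CYP79F1 (-3.34 on the log2 scale), CYP83A1 (-2.36), MAM1 (-2.15) and BCAT4 (-2.06). MYB28 lay at -0.88 and MYB29 at -0.90, and both passed 2-fold without fusca replicate 3 (-1.14 and -1.23). Among the indolic genes CYP79B2 lay at 0.64, CYP79B3 at 0.44 and CYP83B1 at 0.04. The 6 aliphatic genes and SUR1 were lower than GFP-HY5 in every fusca library, as were 32.2% of loci. All 3 fusca libraries were above GFP-HY5 at CYP79B2 and CYP79B3, as at 32.3% of loci, while the GFP-HY5 value of CYP83B1 lay within the fusca range.

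Beyond the 10 genes, 68 of 71 other loci of the pathway and its surroundings could be tested, and in fusca against WT 36 fell and 11 rose, beside 18.4% of all loci lower and 16.7% higher. The 11 that rose are thus a share near that of all loci. Across the alternatives the counts were 26 to 44 lower and 7 to 16 higher, with 26 and 16 under library size only. The aliphatic branch outside the 10 had 16 of 20 tested loci lower, 1 higher and 3 not past the threshold, with a median log2 fold change of -1.18. The indolic branch outside the 10 had 6 of 14 higher, 1 lower and 7 not past the threshold, with a median of 0.17. Across the alternatives 6 to 8 aliphatic chain elongation loci, 3 to 6 aliphatic core loci and 3 to 4 aliphatic side chain loci were lower. In the indolic lists 0 to 2 regulators, 0 to 2 core loci and 3 to 5 side chain loci were higher, with 0 regulators when any 1 WT replicate was left out. Over all loci 18.4% were lower and 16.7% higher by the same rule. MYB76, the remaining aliphatic MYB, had 2, 1 and 5 counts in fusca, 12 in GFP-HY5 and 18, 14 and 7 in WT, too few to be tested.

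**Figure D4:**
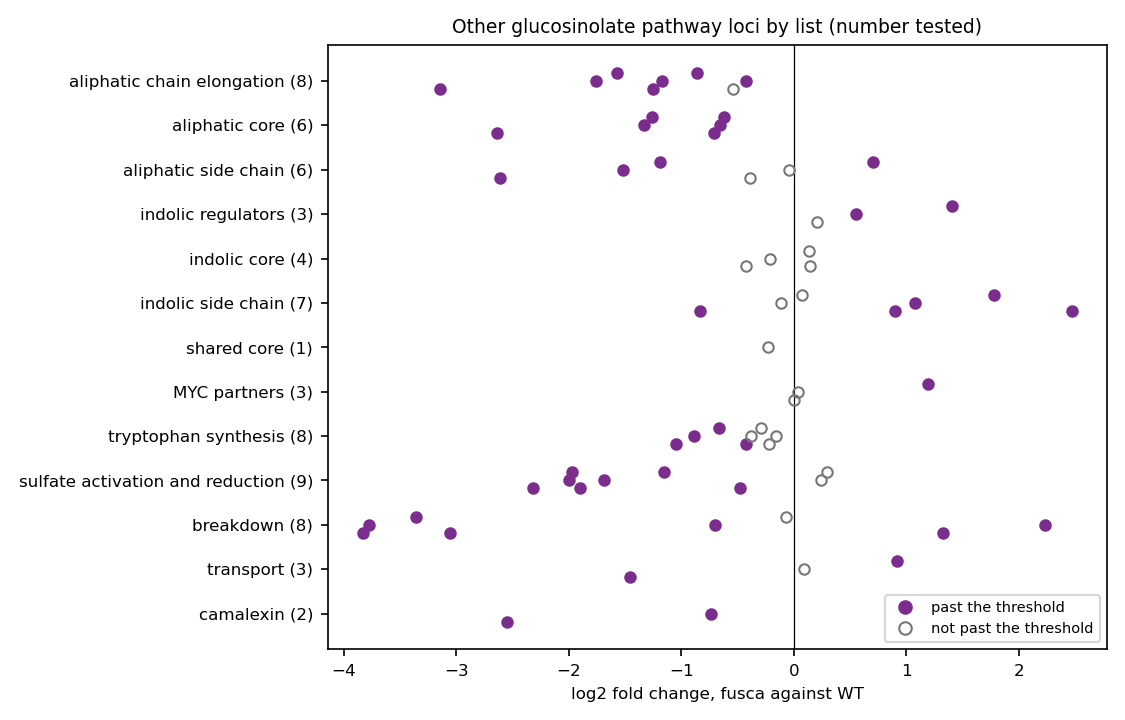
Log2 fold change of fusca against WT (horizontal axis) for the 68 other loci tested, one row per list with its number of loci. Filled points are past the threshold and open points are not. The aliphatic rows lie mostly left of 0 and the sulfate row has 7 of 9 loci lower. The indolic core and side chain rows lie on both sides of 0, and the indolic regulator row lies right of 0.

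In aliphatic chain elongation 7 of 8 loci were past the threshold and lower, beside 18.4% of all loci. IPMI2, a small subunit of the isopropylmalate isomerase, averaged 15.3 ± 1.55 CPM in fusca and 136 ± 11.1 in WT (SD, n = 3 each), a log2 change of -3.15 (edgeR adjusted p = 9.1e-07). IMD1, an isopropylmalate dehydrogenase, changed by -1.76 (edgeR adjusted p = 1.9e-05) and IPMI1 by -1.57 (edgeR adjusted p = 0.00156). IMD1 overlaps AT5G14210. The large isomerase subunit IIL1, shared with leucine synthesis, stood at 169, 290.5 and 153 CPM in fusca and 290, 297 and 303 in WT and was not past the threshold (-0.54, edgeR adjusted p = 0.110). Without fusca replicate 2 all 8 loci were past it and lower, IIL1 among them (edgeR adjusted p = 1.09e-05). Of the 7, MAM3, a relative of MAM1, had the smallest change (-0.43, edgeR adjusted p = 0.0415). It was not past the threshold under 9 of 14 alternatives, among them each WT replicate left out in turn (-0.45, -0.34 and -0.41), fusca replicate 3 left out (-0.44) and library size only, where its sign turned to 0.02, and its adjusted p ran from 0.0138 to 0.901.

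All 6 other aliphatic core loci were past the threshold and lower, beside 18.4% of all loci, and 3 of the 6 were under library size only. The glutathione transferase GSTU20 averaged 60.0 ± 13.8 CPM in fusca and 374 ± 27.8 in WT (SD, n = 3 each), a log2 change of -2.64 (edgeR adjusted p = 1.05e-05). GSTF11, which overlaps AT3G03200, changed by -1.33 (edgeR adjusted p = 0.00298) and AT2G31790, which has no symbol in the gene table and overlaps AT2G08470 and AT2G31800, by -1.26 (edgeR adjusted p = 0.0013). The sulfotransferases SOT17 and SOT18, of the last core step, changed by -0.62 and -0.66 (edgeR adjusted p = 0.00685 and 0.0179). Library size only lost both calls (-0.17 and -0.22), as it did that of CYP79F2. The SOT18 call was also lost without WT replicate 2 (-0.56) or 3 (-0.63) or fusca replicate 1 (-0.51), and adjusted p ran from 0.000775 to 0.306 for SOT17 and from 0.000196 to 0.291 for SOT18.

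Side chain modification was mixed within the aliphatic branch, with 3 of 6 tested loci lower and 1 higher, beside 18.4% and 16.7% of all loci. The S-oxygenases FMO GS-OX1 and FMO GS-OX3 fell by 2.61 and 1.52 on the log2 scale, and AT2G25450, which has no symbol in the gene table, fell by 1.19 (edgeR adjusted p of 2.33e-05, 0.000327 and 0.000518 in that order). FMO GS-OX4, another member of the S-oxygenase family, rose by 0.70 (edgeR adjusted p = 0.0366) and stood at 47.1, 24.4 and 33.3 CPM in fusca and 20.1, 21.8 and 22.8 in WT. That call was lost without WT replicate 1, 2 or 3 (0.68, 0.73 and 0.78) and without fusca replicate 1 (0.42) or 3 (0.73), with edgeR adjusted p between 0.0639 and 0.124 and a range of 0.000173 to 0.124 over all alternatives.

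Among the indolic regulators MYB34 rose by 0.56 (edgeR adjusted p = 0.0236) and MYB122 by 1.41 (edgeR adjusted p = 0.0379), while MYB51 was not past the threshold (0.20, edgeR adjusted p = 0.592). MYB34 stood at 31.3, 22.9 and 31.6 CPM in fusca, 20.7 in GFP-HY5 and 19.8, 19.8 and 18.8 in WT. MYB122 was sparse, with 34, 12 and 38 counts in fusca, 16 in GFP-HY5 and 9, 8 and 6 in WT. Both calls were lost when any 1 WT replicate was left out (MYB34 at 0.60, 0.60 and 0.57, MYB122 at 1.54, 1.44 and 1.35). Both were also lost without fusca replicate 1 (0.49 and 1.25) or 3 (0.48 and 1.14), and that of MYB122 with DESeq2 (1.40, adjusted p = 0.0501). Over all alternatives the edgeR and DESeq2 adjusted p ran from 0.00015 to 0.0877 for MYB34 and from 0.000585 to 0.124 for MYB122.

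Enzymes that decorate the indole ring rose in 4 of 7 cases and fell in 1, beside 16.7% of all loci higher and 18.4% lower. IGMT2, which methylates hydroxylated indole glucosinolates, stood at 35.7, 24.7 and 24.9 CPM in fusca, 13.0 in GFP-HY5 and 4.97, 5.68 and 4.73 in WT. Its log2 fold change in fusca against WT was 2.47 (SE 0.20, edgeR adjusted p = 1.52e-05). IGMT1 rose by 1.78 (edgeR adjusted p = 0.00159) and IGMT5, which overlaps AT1G76780, by 1.07 (edgeR adjusted p = 0.00117). CYP81F2, which hydroxylates the indole ring, rose by 0.90 (edgeR adjusted p = 0.0136), and CYP81F3 fell by 0.84 (edgeR adjusted p = 0.00924). The CYP81F2 call was lost without WT replicate 1 (0.89) or 2 (0.93), with edgeR adjusted p of 0.0575 and 0.0540, and 0.00087 to 0.0575 across the alternatives. The CYP81F3 call was lost without WT replicate 2 (-0.73, edgeR adjusted p = 0.0543) and with library size only (-0.39), with adjusted p of 0.00167 to 0.108 across the alternatives. CYP81F2 and CYP81F3 were chosen after their values were seen, as were FMO GS-OX4, CYP79F2, TSB1, MAM3, SOT17, SOT18 and APK1. IGMT1 and IGMT2 are similar paralogs, and how reads were divided between them is uncertain.

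IGMT1, IGMT2 and CYP81F2 were also the only loci of the 68 past 2-fold in the GFP-HY5 library, with log2 differences from WT of 1.29, 1.33 and 1.22. A count of 3 of 68 is near the 3.07% of all loci past 2-fold. The widest gap between 1 WT library and the other 2 was 0.71, 0.22 and 0.10 at these loci. Of the 14 indolic loci outside the 10, 9 lay above all WT libraries in GFP-HY5 and 3 below, beside 29.4% and 28.9% of all loci. The glutathione transferases GSTF9 and GSTF10, the glucosyltransferase UGT74B1 and the sulfotransferase SOT16, which act after the CYP83 step, were not past the threshold in fusca, with log2 fold changes of -0.42, 0.13, -0.21 and 0.14. With library size only 2 of these 4 were past it and higher. GSTF9 stood at 568, 1079 and 590 CPM in fusca and 997, 1009 and 995 in WT. Without fusca replicate 2 it was past the threshold and lower (edgeR adjusted p = 6.77e-05).

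**Figure D5:**
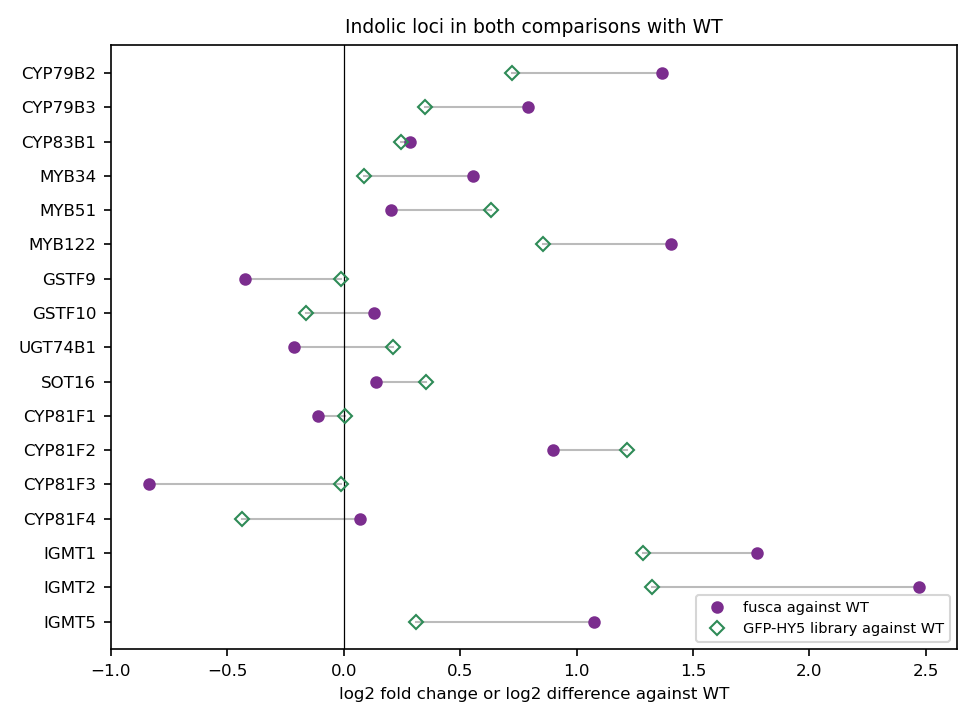
Indolic loci (rows) with the log2 fold change of fusca against WT (filled circles) and the log2 difference of the GFP-HY5 library from WT (open diamonds); both use the same WT libraries. IGMT2 lies at 2.47 and 1.33 and CYP79B2 at 1.37 and 0.72. By contrast CYP81F1, CYP81F2, CYP81F3, MYB51, GSTF9, UGT74B1 and SOT16 lie further right in GFP-HY5 than in fusca.

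Sulfate assimilation supplies reduced sulfur and the activated sulfate that the last core step uses. Of the 9 loci listed with it 7 were past the threshold and lower, beside 18.4% of all loci, with a median log2 fold change of -1.68 over the 9. The 2 not past it were SDI1 (0.29, edgeR adjusted p = 0.645) and AT1G04770 (0.24, edgeR adjusted p = 0.308), which has no symbol in the gene table. The ATP sulfurylase APS3 averaged 6.59 ± 1.24 CPM in fusca and 32.8 ± 1.77 in WT (SD, n = 3 each), a change of -2.32 (edgeR adjusted p = 8.17e-06), and it overlaps AT4G14675. The reductases APR1 and APR2 changed by -2.00 and -1.98 (edgeR adjusted p = 8e-06 and 1.1e-05), and both overlap other annotated loci. The kinase APK1 changed least of the 7 (-0.48, edgeR adjusted p = 0.0407) and was not past the threshold under 8 of 14 alternatives. These were each WT replicate (-0.49, -0.43 and -0.45) and fusca replicate 1 (-0.43) or 3 (-0.38) left out, the replicate block (-0.46), upper-quartile factors (-0.34) and library size only (-0.04), and its adjusted p ran from 0.000183 to 0.792. In the GFP-HY5 library 7 of the 9 lay below all WT libraries, beside 28.9% of all loci, at most 0.47 under the WT mean on the log2 scale. They were not the same 7, since AT1G04770 (-0.47) was among them and APK1 (0.05) was not.

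Tryptophan synthesis, which feeds the indolic branch, had 4 of 8 loci lower and none higher, beside 18.4% and 16.7% of all loci, and 2 to 8 lower across the alternatives. PAI1 changed by -1.05 (edgeR adjusted p = 0.00154), PAT1, which overlaps AT5G18000, by -0.89 (edgeR adjusted p = 0.00116) and TSB2 by -0.66 (edgeR adjusted p = 0.00831). TSB1 changed by -0.43 (edgeR adjusted p = 0.0338), with the sign turned to 0.02 under library size only. The TSB1 call was lost when any 1 WT replicate was left out (-0.41, -0.41 and -0.39) and without fusca replicate 1 (-0.43) or 3 (-0.38), with adjusted p of 0.00101 to 0.917 across the alternatives. TSB2 was not past the threshold without WT replicate 2 (-0.61, edgeR adjusted p = 0.0530) or with library size only (-0.22), with adjusted p of 0.00219 to 0.266 across the alternatives.

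Among the MYC factors that partner the glucosinolate MYBs, MYC2 rose by 1.19 on the log2 scale (edgeR adjusted p = 9.95e-05), at 41.1, 38.3 and 42.7 CPM in fusca, 24.0 in GFP-HY5 and 17.5, 19.1 and 16.9 in WT. MYC3 and MYC4 were not past the threshold (edgeR adjusted p = 0.997 and 0.925). Of the transporters GTR1 fell by 1.46 (edgeR adjusted p = 4.37e-05), NRT1.9 rose by 0.92 (edgeR adjusted p = 0.00247) and GTR2 was not past the threshold (0.09, edgeR adjusted p = 0.716). GTR1, NRT1.9, GTR2 and MYC2 each overlap at least 1 other locus. The camalexin enzymes CYP71A13 and PAD3 fell by 2.55 and 0.74 (edgeR adjusted p = 0.00361 and 0.0375). The PAD3 call was lost without WT replicate 1, 2 or 3 (-0.82, -0.75 and -0.55) and without fusca replicate 1 (-0.68), with adjusted p of 0.0217 to 0.351 over its alternatives. CYP71A13 rests on 4, 1 and 7 counts in fusca and 22, 13 and 18 in WT.

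Genes of glucosinolate breakdown held the largest single change of these lists, and 5 of 8 were lower and 2 higher, beside 18.4% and 16.7% of all loci. TGG1, the main shoot myrosinase, stood at 152, 157 and 159 CPM in fusca, 2021 in GFP-HY5 and 2287, 2091 and 2272 in WT. This is a 14.2-fold decrease in fusca against WT with a log2 fold change of -3.83 (SE 0.19, edgeR adjusted p = 9.1e-07). ESP and ESM1, which steer the products of breakdown, changed by -3.77 and -3.36 (edgeR adjusted p = 8.15e-06 and 7.54e-06), and the second myrosinase TGG2 by -3.06 (edgeR adjusted p = 2.35e-06). NSP1, a nitrile-specifier protein, rose by 2.23 (edgeR adjusted p = 2.94e-05). The ER-body beta-glucosidase PYK10, which is abundant in roots, stood at 11528, 6079 and 8587 CPM in fusca, 2889 in GFP-HY5 and 3524, 3449 and 3460 in WT, a rise of 1.33 on the log2 scale (edgeR adjusted p = 0.00412), and it overlaps AT3G09250. FAMA, the factor that specifies guard cells and the myrosin cells that hold TGG1, had 56, 41 and 62 counts in fusca, 192 in GFP-HY5 and 212, 209 and 213 in WT. TGG2, NSP1, PYK10 and NSP5, which changed by -0.70, were chosen after their values were seen. NSP5 was not past the threshold without WT replicate 1 (-0.55, edgeR adjusted p = 0.107) or 2 (-0.70, edgeR adjusted p = 0.0642) or with library size only (-0.25), with adjusted p of 0.00271 to 0.336 across the alternatives.

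Among 16569 other loci with a mean of at least 5 CPM, the profile over the 7 libraries most like the mean of the 6 aliphatic genes was that of APR1, with a root mean square difference of 0.07 on the log2 scale. AT2G21385, BPG2, FAH1 and ABCG7 followed, at 0.08 to 0.11. The profiles most like the mean of the 3 indolic genes were those of DGK7, AT4G30390, ftsh10, CPK7 and MORF4, at 0.06 to 0.09. This likeness is a description of 7 libraries, which share their depth and scaling.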

How the data were processed

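The authors deposited 1 table of raw counts per locus for 9 RNA-seq samples, with a name that marks the counts as sense strand. The submitters' processing notes name Trim Galore, STAR, HTSeq, deepTools and build TAIR10. The annotation is not given in the sources used here. The 5 summary rows stayed out of all totals (reads on no feature, 48.4% to 48.9% of each column; ambiguous reads, 0.572% to 0.798%). ChIP-seq data (20 libraries) were not used here.

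Loci were kept by filterByExpr on WT and fusca, scaled with TMM and tested with edgeR 4.0.16 (glmQLFit, glmQLFTest; R 4.3.3) in 1 fit of 7 libraries, with Benjamini-Hochberg adjustment and a threshold of 0.05. GFP-HY5, as 1 library, is compared by log2 CPM with a prior count of 2. Precision follows the total per library (11860094 to 12545563 counts) and Wilson intervals cover counting error only. The members and lists were chosen with earlier results of these data known. Named are the 10 genes, up to 3 loci past the threshold with the largest change per list, and a few chosen later. Names come from the RefSeq gene table of TAIR10.1, used for names, spans and overlaps. AOP2 was not analysed here, and AOP3 had too few counts. No coordinates and no sequences are given, since no genome or sequence table was used, so planned promoter motifs were not searched.

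Counts were simulated for the 21820 loci, 200 of them changed, and 20761 passed the filter on the simulated counts. The fit for fusca against WT recovered 91% of 2-fold and 89% of 4-fold changes with the right sign, and 14 of 194 calls were false. A changed locus lost at that filter counted as not recovered. The simulation gave all libraries the WT means and the WT spread, and fusca differed only at those 200 loci. In the data 35.1% of loci were called and fusca had its own spread, so these rates need not hold there. Alternatives were other scalings and filters, DESeq2 1.42.0, fewer libraries, a replicate block and each replicate left out.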

Additional observations from a re-analysis of the deposited data

How the results depend on the processing

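Of 140 values for the 10 genes under 14 alternatives, 127 kept their direction and their side of the threshold, 10 lost and 3 gained the call, and none changed sign. With library size only, which shifts the median of all loci by 0.45, 4 genes were lower in place of 7, the medians were -1.76 (aliphatic) and 1.24 (indolic), and 12774 loci passed in place of 7651, 79.8% of them higher in place of 47.6%. With upper-quartile factors the indolic median was 0.94 and 61.1% of called loci were higher. TSB1 turned to 0.016 and MAM3 to 0.024 under library size only. The cause was not tested. Leaving out each replicate gave an indolic median of 0.75 to 0.87 and an aliphatic median of -2.41 to -2.04. The loci that passed numbered 10895 without fusca replicate 2, 6918 and 7284 without fusca replicates 1 and 3, and 5632 to 5852 without 1 WT replicate. Under the replicate block the medians were -2.20 and 0.83 and 6774 loci passed. The numbers were not taken to pair samples, because the labels do not say that they do. Same-numbered deviations correlated at -0.05, -0.11 and -0.20, and differently numbered ones at -0.05 to 0.15. PAD3 was also not past the threshold with library size only, upper-quartile factors, the block or only the groups compared (-0.28, -0.59, -0.71 and -0.70), nor TSB1 with upper-quartile factors, no count filter or the block (-0.28, -0.42 and -0.40). Of 574 values for the named pathway loci past the threshold in the main fit, 509 kept their call, 63 lost it and 2 changed sign. Named loci not past it were left out of that tally, so it could not show a gained call. Of those, IIL1, GSTF9, GSTF10, SOT16 and GTR2 each passed under at least 1 alternative. In GFP-HY5 against WT the count past 2-fold was 0 under all alternatives, and in fusca against GFP-HY5 it was 4 to 6. Depth limits MYB76, MYB122 and CYP71A13, all under 40 counts per library.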
